A study of Mus musculus with 4 samples.

Results

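Chromatin accessibility was examined around 7 vascular microRNA genes, *Mir143*, *Mir145a*, *Mir21a*, *Mir29a*, *Mir29b-1*, *Mir29b-2* and *Mir126a*, in the mouse aorta. A peak was taken as a member if it lay within 50 kb of any of these genes as placed by GENCODE vM21 on GRCm38, the same assembly as mm10. Genes closer than 5 kb to each other were counted as 1 locus, which gave 5 loci. The 7 genes are among 2202 microRNA genes of the annotation, and the members are 66 of the 64360 peaks of the 4 deposited lists. The control female list supplied 25 of its 21176 peaks and the VEDS male list 41 of its 41444. The control male list, with 1236 peaks, and the VEDS female list, with 504, supplied 0 each.

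The lists come from ATAC-seq, in which the transposase Tn5 cuts accessible DNA so that open regions appear as peaks. Nuclei of whole aortic tissue at P60 were taken from control mice (*Col3a1*+/+) and from VEDS mice, which carry the *Col3a1*G938D allele over a wild-type allele (*Col3a1*G938D/+) and model vascular Ehlers-Danlos syndrome. All mice were of the C57BL/6J background. The library kit was a single-cell one, but the peaks were listed per library over all cell types together. Each genotype had 1 female and 1 male library, each pooled from 2 mice, so that genotype replicates also differed in sex. With 2 libraries against 2, an exact two-sided permutation test can reach a p of 0.33 at the lowest, and no test between genotypes was made.

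MicroRNAs are cut from a long primary transcript by Drosha in the nucleus and from the resulting hairpin by Dicer in the cytoplasm, after which the mature strand guides an Argonaute protein to mRNAs that pair with its seed. Because the hairpin start is a cleavage site, the promoter of a microRNA lies upstream, often at the start of a host gene. *Mir143* and *Mir145a* are known for their role in differentiated smooth muscle, where serum response factor and myocardin act through CArG boxes. The miR-29 family is known to target mRNAs of collagens and other matrix proteins. *Mir21a* is induced in vascular injury and in activated fibroblasts, and *Mir126a* lies in *Egfl7* and is characteristic of endothelium.

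The mature strands show how the members are related. Of the 7 genes, 5 matched a RefSeq entry on GRCm38.p6, and *Mir29c*, the neighbour of *Mir29b-2*, is shown with them because it completes the family. Capitals mark the seed, bases 2 to 8 from the 5′ end. The first 3 strands share 1 seed, so that both miR-29 loci supply strands with the same pairing letters.
miR-29a-3p: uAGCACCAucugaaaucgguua
miR-29b-3p: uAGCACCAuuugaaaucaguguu
miR-29c-3p: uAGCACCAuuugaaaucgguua
miR-21a-5p: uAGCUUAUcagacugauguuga
miR-126a-3p: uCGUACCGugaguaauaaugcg
The strand of *Mir29a* differed from that of *Mir29c* at 1 of 22 positions (C10U, counted from the 5′ end of miR-29a-3p), and 18 of 22 positions were the same in miR-29a-3p and miR-29b-3p. *Mir29b-1* and *Mir29b-2* give the same miR-29b-3p from 2 chromosomes.

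The open region upstream of *Mir21a* held the CArG box nearest to any of the hairpins, and it is shown because it was present in both lists that had peaks near the microRNA genes. The 300 bases around its summit in the control female library, chr11:86587027-86587326 on the plus strand of GRCm38, follow with the CArG box in capitals. The hairpin is transcribed from the opposite strand, to the left of this window.
Mir21a upstream window: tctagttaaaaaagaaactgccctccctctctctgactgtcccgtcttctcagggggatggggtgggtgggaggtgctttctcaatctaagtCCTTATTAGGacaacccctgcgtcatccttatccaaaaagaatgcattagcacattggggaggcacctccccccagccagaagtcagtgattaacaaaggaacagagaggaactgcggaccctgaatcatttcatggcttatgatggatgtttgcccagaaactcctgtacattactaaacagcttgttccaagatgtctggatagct

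The other matches outside the *Mir143*/*Mir145a* locus are shown in 30 bases of the plus strand, so that the letters behind each count can be read. Capitals mark the match. The motifs searched were AP-1 (TGACTCA or TGAGTCA, which are reverse complements), ETS (CCGGAAGT or CAGGAAGT), the CArG box and the MEF2 box, on both strands.
Mir21a AP-1, chr11:86577413-86577442: agagtttcctgTGACTCAaagcactagtca
Mir21a ETS, chr11:86577470-86577499: aggctgctggtACTTCCGGaaaagcctgga
Mir29a/Mir29b-1 AP-1, chr6:31088621-31088650: atttctggaagTGACTCActgagaaaggac
Mir29a/Mir29b-1 AP-1, chr6:31088753-31088782: cagctcagctcTGAGTCAcacccccccccc
Mir29a/Mir29b-1 ETS, chr6:31038229-31038258: ctgccacttggCAGGAAGTctggttcaaac
Mir29b-2 AP-1, chr1:195034127-195034156: gcacatagctgTGACTCAgcactcactgct
Mir29b-2 AP-1, chr1:195012682-195012711: acttaggaacaTGAGTCAtaggcatttctt
Mir29b-2 MEF2, chr1:194992783-194992812: gggagcaaccCTAAATTTAGcaaaactgta
Of these 8 sites, those of AP-1 were all in summit windows of both lists. Those of ETS and MEF2 were in windows of the VEDS male list alone. The *Mir21a* ETS site lay in a region listed in both, but outside the control female peak and window. At *Mir143*/*Mir145a* the AP-1 sites were in VEDS male windows alone. An ETS and a MEF2 site there were in windows of both lists, and another of each in VEDS male windows alone. An AP-1 site was in 11.6% of all windows of either list.

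The long lists (VEDS male, control female) each had at least 1 peak at all 5 loci, and the short lists had a peak at none. Over all microRNA genes of the annotation, the share with a peak within 50 kb was 58.1% (control female) and 67.3% (VEDS male) in the long lists, and 4.50% (control male) and 4.13% (VEDS female) in the short ones. An empty locus was thus the usual case in the short lists, and a region without a peak there was not taken as closed. The median number of overlapping fragments at a summit (pileup, recovered from the deposited fold enrichment and −log10 p) was 14 (control female) and 22 (VEDS male) over the long lists and 7 (control male) and 6 (VEDS female) over the short lists. The methods do not say whether fragments or extended cut sites were counted. In the control male list 68.8% of peaks were over 50% repeat-masked, against 27.4%, 3.90% and 5.09% in the VEDS female, control female and VEDS male lists, and no member peak was. The long lists come from libraries of different genotype and different sex, which cannot be told apart in any difference between them.

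The tissue label was checked with the promoters of marker genes, where a promoter peak is one within 3 kb of a transcription start site (TSS). The share of protein-coding genes with a promoter peak was 47.4% (control female) and 58.5% (VEDS male) in the long lists and 1.62% (control male) and 1.49% (VEDS female) in the short ones. All 6 vascular smooth muscle cell (VSMC) markers (*Acta2*, *Myh11*, *Tagln*, *Cnn1*, *Lmod1*, *Myocd*) had one in both long lists, and none in either short list. Of 6 endothelial markers, 1 had one in the control female list (*Pecam1*, pileup 7) and 4 had one in the VEDS male list (*Pecam1*, *Tie1*, *Tek* and *Kdr*, pileups 28, 11, 11 and 13), and *Cdh5* and *Egfl7* had none in any list. Of 5 fibroblast markers, 2 had one in the control female list and 1 had one in the VEDS male list, and none of 5 immune markers had one in any list. Adipocyte markers had 0 of 4 in the control female list and 2 of 4 in the VEDS male (*Plin1*, *Cidea*), and striated muscle markers 0 of 4 and 1 of 4 (*Ckm*).

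**Figure D1:**
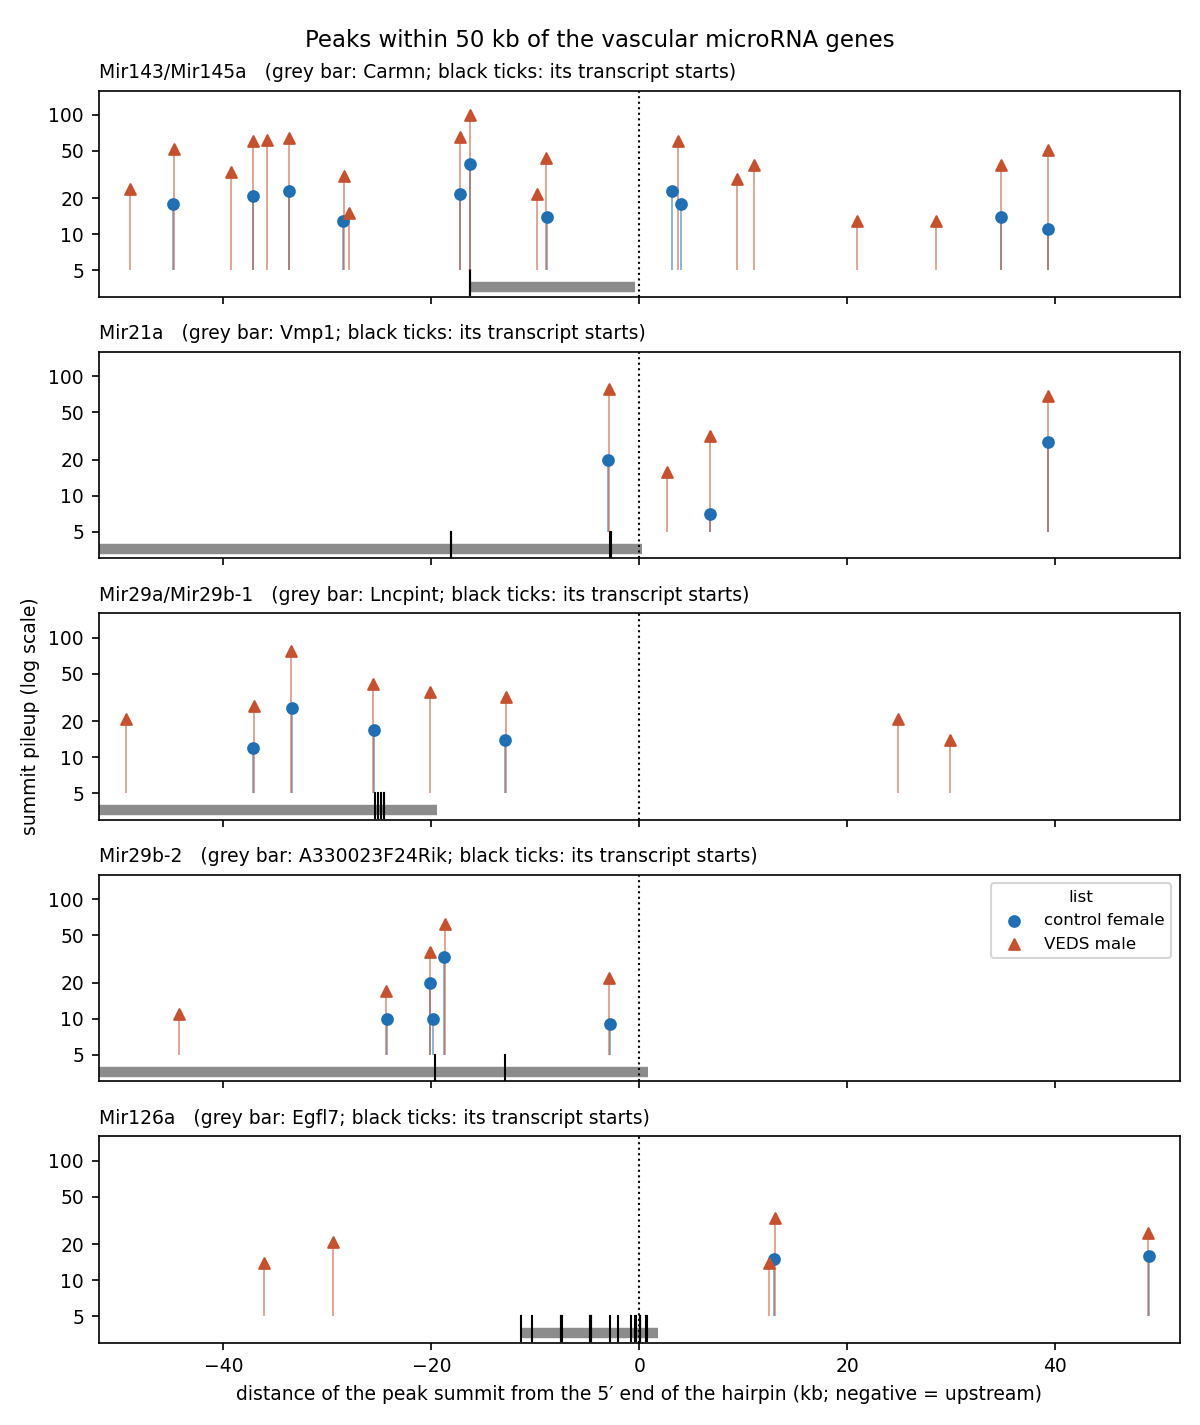
Peaks near each locus, with the distance of the summit from the 5′ end of the hairpin on the x axis (kb, upstream negative) and the summit pileup on a log y axis, for the control female list (blue circles) and the VEDS male list (red triangles). The *Mir143*/*Mir145a* locus held 11 and 19 peaks, and no peak lay at any *Egfl7* transcript start.

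At *Mir21a* the strongest peak of any locus was found in the VEDS male list. *Mir21a* (ENSMUSG00000065455.1, chr11:86584067-86584158, minus strand) lies inside the annotated end of *Vmp1*, which encodes a membrane protein of autophagy and is transcribed in the same direction. The locus had 3 peaks in the control female list and 4 in the VEDS male. A peak at the internal starts of 2 short *Vmp1* transcripts had its summit 3.02 kb upstream of the hairpin in the control female list (chr11:86586897-86587404, pileup 20, rank 5153 of 21176) and 2.90 kb upstream in the VEDS male (chr11:86586840-86587478, pileup 79, rank 1344 of 41444). It stood in the strongest 24.3% of the one list and the strongest 3.24% of the other. The CArG box printed above lies inside this peak in both lists, 2.97 kb upstream of the hairpin. The full-length starts of *Vmp1*, far outside the 50 kb, also lay in a peak of both lists.

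Downstream of *Mir21a* 3 regions were listed. The one at 6.83 kb (control female, chr11:86577297-86577463, pileup 7, rank 19584) and 6.77 kb (VEDS male, chr11:86577184-86577533, pileup 32, rank 13805) is intergenic and holds the AP-1 site printed above. An intergenic peak 2.67 kb downstream (pileup 16, rank 35914) was in the VEDS male list alone. The peak 39.3 kb downstream lies on the shared promoter of *Rps6kb1*, which encodes S6 kinase 1, and *Tubd1*, which encodes delta-tubulin. It had a pileup of 28 (rank 1783) in the control female list and 69 (rank 1774) in the VEDS male, so that the highest peak within 50 kb in the control female list was not at *Vmp1* but at these genes.

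*Mir29a* and *Mir29b-1* (ENSMUSG00000065610.1 and ENSMUSG00000065604.2, chr6:31062660-31062747 and chr6:31063023-31063093, minus strand) were farther from any peak than 3 of the other loci, with the nearest edge 12754 bp away in the control female list and 12380 bp in the VEDS male. The locus had 4 peaks in the control female list, all upstream, and 8 in the VEDS male, of which 6 were upstream. *Gm27019*, a short noncoding transcript that overlaps *Mir29b-1*, starts 12353 bp from the nearest control female peak and 11979 bp from the nearest VEDS male peak. The nearest peak lay 12.9 kb upstream between *Mir29b-1* and *Lncpint* (chr6:31075848-31076071 in the control female list, pileup 14, rank 10918, and chr6:31075474-31076127 in the VEDS male, pileup 32, rank 14768).

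The stronger peaks of the *Mir29a*/*Mir29b-1* locus lay in *Lncpint*, a p53-induced long noncoding RNA that runs toward the microRNAs and ends 19472 bp upstream of *Mir29b-1*. The strongest was in an intron, 33.4 kb upstream in the control female list (chr6:31096321-31096783, pileup 26, rank 4278) and 33.5 kb upstream in the VEDS male (chr6:31096259-31096956, pileup 78, rank 2614). It had none of the 4 motifs. A peak on the start of one of the shorter *Lncpint* transcripts, 25.5 kb upstream, had a pileup of 17 in the control female list (chr6:31088444-31088710, rank 7522) and 41 in the VEDS male (chr6:31088347-31088901, rank 9586), with both AP-1 sites printed above in its summit window. The VEDS male peak contained both sites, and the shorter control female peak contained 1 of them. A peak 37.1 kb upstream was also listed in both (pileups 12 and 27). The other 4 peaks were in the VEDS male list alone, with pileups of 35 at 20.1 kb upstream, 21 at 49.4 kb upstream, 21 at 24.9 kb downstream and 14 at 29.9 kb downstream.

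*Mir29b-2* (ENSMUSG00000065412.3, chr1:195037040-195037120, plus strand) had 5 peaks in each long list, all upstream and spread over its host transcript *A330023F24Rik*. The strongest peak lay 18.7 kb upstream, over the divergent noncoding gene *Gm37027* (control female chr1:195018100-195018450, pileup 33, rank 1645; VEDS male chr1:195017976-195018472, pileup 62, rank 4340). It was the highest ranked member peak of the control female list. In that list 2 narrow peaks lay 20.1 kb and 19.8 kb upstream of the hairpin (pileups 20 and 10). Both ended before the start of A330023F24Rik-202, which lay 45 bp from the second. The VEDS male list had 1 peak of 655 bp over both and over the start itself (pileup 36, rank 15931). The first start of *A330023F24Rik*, A330023F24Rik-201, also lay in a peak of both lists, beyond 50 kb.

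The peak nearest to *Mir29b-2* was 2.84 kb upstream in the control female list (chr1:195034081-195034238, pileup 9, rank 14488) and 2.88 kb upstream in the VEDS male (chr1:195034041-195034256, pileup 22, rank 17282). It lies on an exon of *A330023F24Rik* and holds an AP-1 site 2.90 kb upstream of the hairpin. A second AP-1 site lay 24.3 kb upstream in a peak of low rank in both lists (pileups 10 and 17). The peak with the MEF2 box, 44.3 kb upstream, was in the VEDS male list alone (pileup 11, rank 33855). The miR-29 loci had AP-1 sites in both lists, and neither list had a strict CArG box there. Over all windows, 11.6% of either list had an AP-1 site. A strict CArG box was in 3.02% (control female) and 3.09% (VEDS male), so that its absence from so few windows says little. With 1 mismatch allowed in the A/T core, the summit windows of the peaks nearest to *Mir29b-2* and to *Mir29b-1* had a CArG match in both lists. Of all windows, 12.2% (control female) and 12.4% (VEDS male) had such a match. The match near *Mir29b-2* lay inside the VEDS male peak but outside the narrower control female peak.

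*Mir126a* (ENSMUSG00000065540.1, chr2:26591357-26591429, plus strand) lies in *Egfl7*, which encodes a secreted endothelial protein, and also within the annotated gene *Gm20532*. None of the *Egfl7* transcript starts had a peak, the closest approach being 12139 bp in the control female list and 11685 bp in the VEDS male. The locus had 2 peaks in the control female list and 5 in the VEDS male. The nearest shared peak was 13 kb downstream, on the promoter of *Agpat2*, a gene of lipid synthesis (control female chr2:26604286-26604492, pileup 15, rank 10730; VEDS male chr2:26604267-26604520, pileup 33, rank 14248). The other shared peak, 49.0 kb downstream, covered the start of the antisense gene *Snhg7os* (pileups 16 and 25, ranks 6428 and 16866). In the VEDS male list alone there were peaks 36.1 kb and 29.5 kb upstream (pileups 14 and 21) and a further one at *Agpat2* (pileup 14). No summit window at this locus held any of the 4 motifs in their strict form. With the looser forms, 1 control female window had a CArG match, with 1 mismatch in its core, and 3 of the 5 VEDS male windows had a shorter ETS core (AGGAAG or CGGAAG), which 43.1% of all VEDS male windows have. In the same lists 1 and 4 of the 6 endothelial markers had a promoter peak, and *Egfl7* is itself among these markers. In bulk nuclei, a small share of endothelial cells and closed chromatin in these cells cannot be told apart.

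*Mir143* and *Mir145a* (ENSMUSG00000065445.3 and ENSMUSG00000065592.2, chr18:61649196-61649258 and chr18:61647825-61647894, minus strand) had the most peaks of the 5 loci, 11 in the control female list and 19 in the VEDS male. *Mir143* had 11 peaks within 50 kb in the control female list, where the median over all microRNA genes was 1 and 0.5% had as many, and 19 in the VEDS male, where the median was 2 and 0.0908% had as many. Many microRNA genes are clustered and share peaks, *Mir143* and *Mir145a* among them. In the control female list 7 peaks were upstream and 4 downstream, and in the VEDS male 12 and 7.

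The strongest of these peaks lay on the starts of *Carmn*, a long noncoding RNA of smooth and cardiac muscle that ends 367 bp upstream of *Mir143*. It was 16.3 kb upstream in both lists, with a pileup of 39 in the control female list (chr18:61665365-61665894, rank 2285) and 100 in the VEDS male (chr18:61665042-61665939, rank 2368). The pileup of 100 was the highest at any member peak. A second peak at the *Carmn* promoter, 17.3 kb and 17.2 kb upstream, had pileups of 22 and 65 and an ETS match. Within a *Carmn* intron, a peak 8.86 kb upstream in the control female list (pileup 14, rank 18864) and 8.95 kb in the VEDS male (pileup 44, rank 15329) held both a MEF2 box, 8.91 kb upstream, and a CArG box, 8.97 kb upstream. It was the only member window with both.

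Beyond *Carmn* lies *Il17b*, a cytokine gene, whose surroundings held further peaks of both lists. A second CArG box lay in a peak 37.2 kb upstream (pileups 21 and 61, ranks 13270 and 11640). Another was in a peak 44.8 kb upstream (pileups 18 and 52, ranks 9818 and 8177), to which the start of *Gm38165* was nearest. Thus 3 of the 4 CArG-bearing regions were at this locus. A peak 33.6 kb upstream had no motif (pileups 23 and 64). A peak 28.5 kb upstream in the control female list and 28.4 kb in the VEDS male (pileups 13 and 31) held a MEF2 box in both, which was in the summit window of the VEDS male list alone. Which of these regions act on *Mir143* and *Mir145a*, on *Carmn*, on *Il17b*, on *Gm38165* or on another gene was not tested.

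Downstream of the hairpins, 2 narrow control female peaks at 3.11 kb and 3.98 kb (pileups 23 and 18) corresponded to 1 VEDS male peak of 1897 bp (pileup 61), over the long noncoding RNA *Bvht*, which is transcribed toward the hairpins from the opposite strand and is known from cardiac development. Its edge was 1212 bp from *Mir145a*, the shortest gap between any hairpin and a peak. Around the *Bvht* start 2 peaks were in the VEDS male list alone, with pileups of 29 and 38, the first with an AP-1 site in its summit window. Farther out, peaks 34.8 kb and 39.3 kb downstream in the VEDS male list had counterparts in the control female list (pileups 38 and 51 against 14 and 11). The remaining 7 peaks of this locus that only the VEDS male list held had pileups of 13 to 62. The highest of them lay on the *Il17b* promoter, 35.8 kb upstream, and one in a *Carmn* intron, 9.81 kb upstream (pileup 22), had an ETS and an AP-1 match.

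Promoter peaks of the transcripts that cover or lead into the hairpins were thus found at 3 of the 5 loci in both long lists, *Carmn* for *Mir143*/*Mir145a*, *Vmp1* for *Mir21a* and *A330023F24Rik* for *Mir29b-2*. Over protein-coding genes the share with a promoter peak was 47.4% and 58.5% in these lists, so that 3 of 5 is near the background. With a same-strand gene ending up to 20 kb upstream counted as well, a choice made after seeing the data, *Lncpint* made it 4 of 5 in both. *Mir126a* had none under either definition. Within 5 kb of the hairpin itself, 4 of 7 genes had a peak in both lists (*Mir143*, *Mir145a*, *Mir21a*, *Mir29b-2*), against 18.6% of all microRNA genes in the control female list and 27.3% in the VEDS male. *Mir143* and *Mir145a* are 1 locus and were both counted through the same peaks over *Bvht*, so that these genes are not independent.

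**Figure D2:**
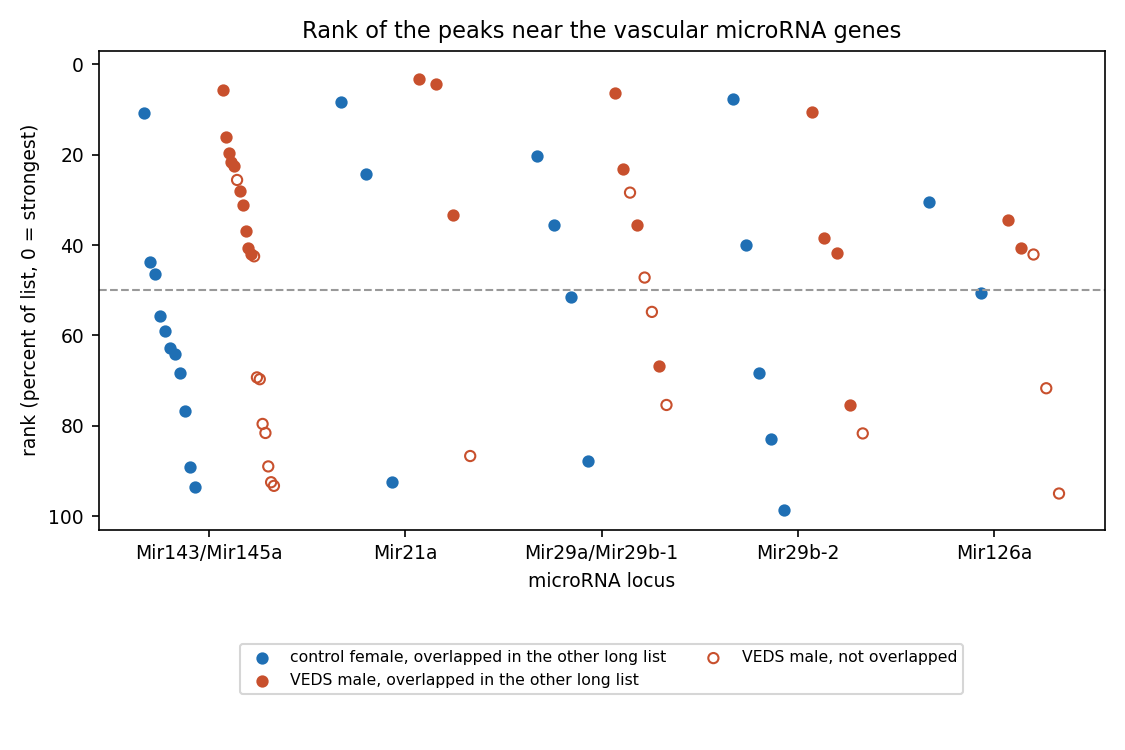
Rank of each member peak as a percentage of its own list (y axis, 0 is the strongest) by locus, in blue for control female and red for VEDS male, with open circles for peaks that no peak of the other long list overlapped. All 25 control female peaks were overlapped, and the dashed line marks the middle of each list.

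The lists largely coincided near these genes, as they did elsewhere. All 25 control female member peaks were overlapped by at least 1 bp of a VEDS male peak (exact 95% binomial interval 86.3% to 100%), against 95.0% of the whole control female list. In the other direction 23 of 41 VEDS male member peaks were overlapped (56.1%, 39.7% to 71.5%), against 47.6% of the whole VEDS male list. These intervals cover counting error only. Merged over both lists there were 41 regions, of which 23 were in both, 18 in the VEDS male list alone and 0 in the control female list alone. The 18 were 9 at *Mir143*/*Mir145a*, 4 at *Mir29a*/*Mir29b-1*, 3 at *Mir126a* and 1 each at *Mir21a* and *Mir29b-2*. Their median rank was 30486 of 41444 and their median pileup 21.0, whereas the 23 shared VEDS male peaks had a median rank of 12873 and a median pileup of 44.0. Of the 18, 5 stood above the middle of the list, and 2 stood above the median of the shared peaks, at the *Il17b* promoter (rank 10592, pileup 62) and on an exon of *Lncpint* (rank 11772, pileup 35). With the VEDS male list shortened to its strongest 21176 peaks, 26 member peaks were left, of which 80.8% were overlapped in the control female list, against 77.6% of all peaks of the shortened list.

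The member peaks ranged over nearly the whole of each list, with control female ranks of 1645 to 20870 and VEDS male ranks of 1344 to 39387. In the upper part of the ranking, above the middle of the list, stood 10 of 25 control female and 26 of 41 VEDS male member peaks. Their median width was 261 bp and 316 bp, against 249 bp and 287 bp over the whole lists. The median GC content of their summit windows was 51.3% and 53.0%, against 56.0% and 53.3%. Of the control female member peaks 15 were within 3 kb of a TSS, 3 in introns, 2 on exons and 5 intergenic, and of the VEDS male 21, 3, 4 and 13.

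To compare the pileup at peaks listed in both long lists, peaks whose summits lay at most 150 bp apart were paired, a choice made after seeing the data. Regions with a peak in 1 list alone, such as the 18 of the VEDS male list, do not enter this comparison. Over all 18177 such pairs the VEDS male pileup was 2.46 times the control female one at the median, and 90% of the ratios lay between 1.5 and 3.85. For 1.68% of pairs the 95% interval of the ratio did not include that median. None of the 22 member pairs was among them, and their median ratio was 2.51 with a range of 1.56 to 4.64. The interval covers counting error only, and mice were not replicated within a sex and genotype.

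The *Mir21a* upstream peak had a pileup of 20 in the control female list and 79 in the VEDS male. Their ratio of 3.95 (2.39 to 6.81) was at the 96.0 percentile of all pairs. The AP-1-bearing peak downstream of *Mir21a*, at 7 and 32, had a ratio of 4.57 (1.98 to 12.3). The highest ratio, 4.64 (2.39 to 9.87), was at the intergenic peak 39.4 kb downstream of *Mir143*. At the *Carmn* promoter the ratio was 2.56 (1.75 to 3.81), next to the median of all pairs. The 4 pairs at *Mir29a*/*Mir29b-1* had ratios of 2.25 to 3. The 4 pairs at *Mir29b-2* had ratios of 1.70 to 2.44, all under the median of all pairs, as were both at *Mir126a*, at 2.2 and 1.56. At these 22 paired peaks, a difference between the libraries beyond their overall depth was not detectable from 7 to 100 fragments per summit.

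**Figure D3:**
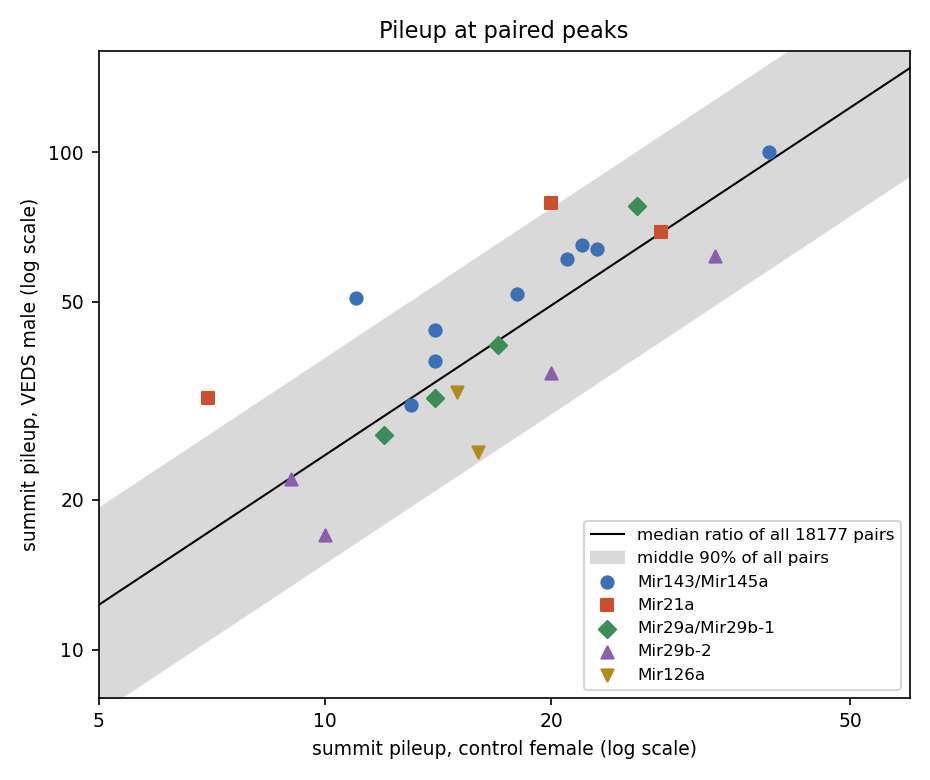
Summit pileup of the 22 member pairs in the control female list (x axis, log scale) and the VEDS male list (y axis, log scale), with the median ratio of all 18177 pairs as a line and the middle 90% of ratios as a grey band. The *Mir21a* upstream peak, at 20 and 79, lies just above the band. The peaks downstream of *Mir21a*, at 7 and 32, and of *Mir143*, at 11 and 51, lie farther above it. The *Mir29b-2* and *Mir126a* peaks lie on or below the line.

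Motif matches were counted in 300-bp windows around the summits. A CArG box was present in 4 of 25 control female member windows (16.0%, exact 95% binomial interval 4.54% to 36.1%), against 3.02% of all windows of that list, and in 4 of 41 VEDS male windows (9.76%, 2.72% to 23.1%), against 3.09%. These were the same 4 regions in both lists, 3 at *Mir143*/*Mir145a* and 1 at *Mir21a*, so that they are not independent of each other. The AP-1 site was in 4 control female windows (16.0%, against 11.6%) and 6 VEDS male windows (14.6%, against 11.6%). The MEF2 box was in 1 control female window (against 5.55%) and 3 VEDS male windows (7.32%, against 5.79%). The ETS site was in 1 control female window (against 7.34%) and 4 VEDS male windows (9.76%, against 6.0%). The intervals for AP-1, MEF2 and ETS included the shares over all windows, as did that for CArG in the VEDS male list. The CArG interval in the control female list did not, but it treats as independent windows of which 3 of 4 lay at 1 locus. The control female count fell from 4 to 3 of 25 in 200-bp windows. It was 3 of 18 at a −log10 q of at least 5 and 1 of 8 at a −log10 q of at least 10. The number of member peaks thus fell along with the count. In the VEDS male list the count stayed at 4 in these settings, of 41, 34 and 26 windows.

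Any of the 4 motifs was present in 9 of 25 control female member windows (36%, against 25.3%) and 14 of 41 VEDS male windows (34.1%, against 24.3%). Of these 14 regions 7 were at *Mir143*/*Mir145a*, 3 at *Mir29b-2*, 2 each at *Mir21a* and *Mir29a*/*Mir29b-1* and 0 at *Mir126a*. With the strict consensus, the CArG matches lay at the *Mir143*/*Mir145a* and *Mir21a* loci, and the AP-1 sites found in both lists at *Mir21a* and the miR-29 loci. With 1 mismatch allowed in the A/T core of the CArG box, 7 control female and 9 VEDS male member windows had a match, against 12.2% and 12.4% of all windows. The 3 windows this added in the control female list were 1 each at *Mir29a*/*Mir29b-1*, *Mir29b-2* and *Mir126a*. In that list CArG matches were then found at all 5 loci. No VEDS male summit window at *Mir126a* had such a match, and the control female one lay outside the peak itself. A match shows that the letters are there, and binding of a factor was not measured.

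**Figure D4:**
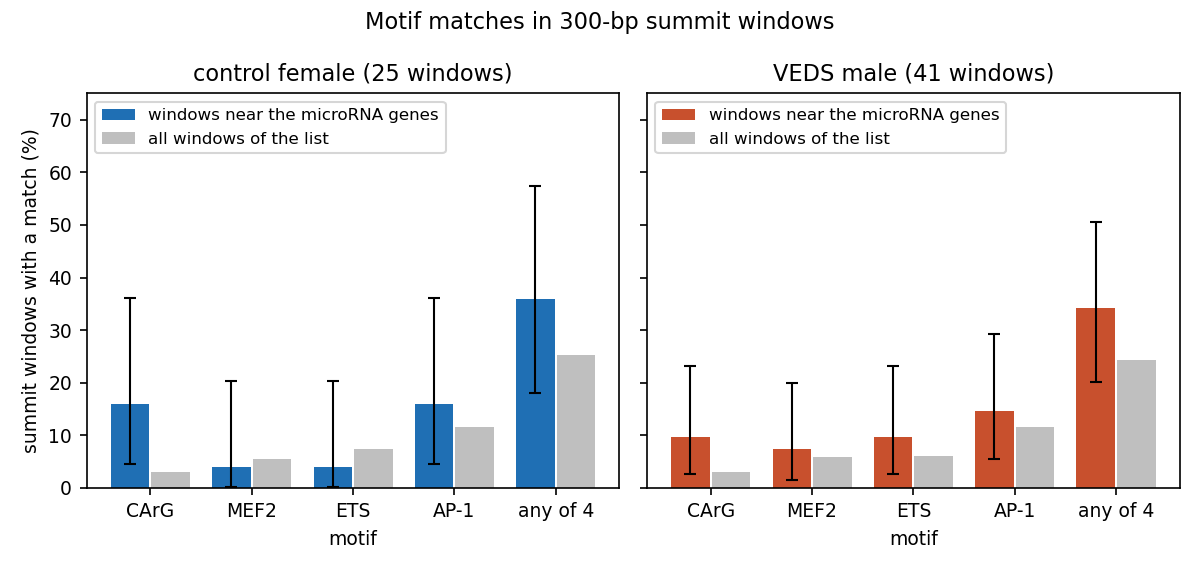
Share of 300-bp summit windows with a match (y axis, percent) for each motif in the control female list (left) and the VEDS male list (right), near the microRNA genes in color and over all windows of the list in grey. Error bars are exact 95% binomial intervals; the CArG share in the control female list, 16.0%, stands against 3.02% over all windows.

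Other microRNA genes were counted in the same way. Of 17 further genes described in the vessel wall, such as *Mir23a*, *Mir27a*, *Mir125b-1*, *Mir199a-2* and *Mir214*, 14 had a peak within 50 kb in the control female list and all 17 in the VEDS male. *Mir10b*, *Mir221* and *Mir222* had none in the control female list. Of 21 genes typical of other tissues or blood cells, 15 and 17 had one, and 4 had none in any list, *Mir223* of myeloid cells, the pancreatic *Mir216a* and *Mir217*, and the neuronal *Mir124a-1*. Within 5 kb, 6 and 9 of the 17 vessel wall genes had a peak, against 1 and 1 of the 21 others, the muscle gene *Mir206* in both lists. Over all microRNA genes the shares were 58.1% (control female) and 67.3% (VEDS male) within 50 kb. Within 5 kb they were 18.6% and 27.3%. Genes were counted singly in these lists, and clustered genes can share a peak, so that the counts are not of independent loci. The median number of peaks within 50 kb was 4 and 8 at the 7 member genes, 2 and 6 at the vessel wall genes and 1 and 1 at the genes of other tissues. *Mir155* is in both of the other lists. In the short lists, 1 gene of other tissues had a peak in the control male library, and no gene of the 3 lists had one in the VEDS female.

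Genes of the machinery that makes and uses microRNAs had promoter peaks in both long lists. Of 16 genes, 15 had one in each, the exception being *Ago4* in both. Over all protein-coding genes the share with a promoter peak was 47.4% (control female) and 58.5% (VEDS male). The nuclear processing genes *Drosha* and *Dgcr8* had pileups of 36 and 32 in the control female list (ranks 479 and 1040) and 66 and 75 in the VEDS male (ranks 1915 and 1403). *Dicer1* had 21 and 47, and *Xpo5*, the exporter of the hairpin, 11 and 48. *Ago2*, the Argonaute that cleaves its target, had 12 and 42. *Tnrc6c*, a GW182 protein of the silencing complex, ranked highest of the 16 in both lists, at 77 and 300. The control male list had no promoter peak at any of the 16 genes, and the VEDS female list had 1, at *Tnrc6b*. In these short lists the shares over all protein-coding genes were 1.62% (control male) and 1.49% (VEDS female).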

How the data were processed

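Nuclei of 4 aortic libraries were profiled by ATAC-seq. The authors aligned the reads to mm10 (the aligner is not given in the sources used here), removed duplicates by barcode, corrected for the Tn5 cut, called peaks per library with MACS2 in narrow mode and left out blacklisted regions. The deposited lists give for each peak a score (10 times the −log10 q, truncated), a fold enrichment at the summit over the local background, −log10 p, −log10 q and the summit offset. Lists were used as deposited, ranked by −log10 q. The pileup is the whole number that fits both the deposited fold enrichment (pseudocount 1) and −log10 p under a Poisson distribution, to within 0.002 or 0.02%, for 99.3% to 99.9% of peaks of a list. It was the measure of depth. Recovery and motif search were tested on data simulated with the same formula and consensus. That checks the code alone, and not whether the recovered number is the true pileup. A peak lay near a gene if its edge was within 50 kb, and overlap meant at least 1 bp. In the control female list the outermost peak inside the limit was 48.8 kb away (pileup 16) and the first outside 50.9 kb (pileup 12), and in the VEDS male 49.3 kb (pileup 21) and 50.1 kb (pileup 14). The annotated starts of microRNA genes were not used as TSS.

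The members and gene lists were chosen with earlier results of these data known. Every peak near a member was counted, and genes were named as hosts, as the nearest TSS of a member peak or from the lists. Of 18 vessel wall genes listed, 17 matched GENCODE vM21. Alternatives were the distance, −log10 q thresholds, list length, masked bases, overlap, promoter width, window, consensus, and leaving out each library. Tools were pysam 0.24.0, scipy 1.17.1, matplotlib 3.10.9, pandas 2.3.3 and numpy 2.4.6 under Python 3.11.15.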

Additional observations from a re-analysis of the deposited data

Results flagged for a closer look

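The number of peaks near the microRNA genes moved in opposite directions with genotype in the sexes. VEDS minus control was -25 peaks in the female libraries (25 in control, 0 in VEDS) and 41 in the male libraries (0 in control, 41 in VEDS). Each value compares 1 library with 1 other, and the difference was not tested. The libraries with 0 are those with the short lists of 504 and 1236 peaks.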

How the results depend on the processing

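Peaks were found at all 5 loci in both long lists at 25 kb and 100 kb, at a −log10 q of at least 5 or 10, without masked peaks and with the VEDS male list shortened. With each list reduced to its 504 strongest peaks no member peak was left in any list (0 loci, 0 peaks in either long list, 0 promoter peaks at hosts, 0 windows with a motif), so that no overlap could be given. The number of member peaks followed the limits, with 14 and 20 (control female and VEDS male) at 25 kb, 39 and 63 at 100 kb, and 8 and 26 at a −log10 q of at least 10. It was also 26 in the VEDS male list shortened to 21176. Of VEDS male member peaks, 30.8% were overlapped at a −log10 q of at least 10 (38.6% of the whole list) and 80.8% in the shortened list (77.6%), where the main share was 56.1%. Of control female member peaks 68.0% were overlapped when at least 50% of both peaks had to be (67.1% of the whole list), where the main share was 100%. Windows with any motif were 23 over both lists, 12 at a −log10 q of at least 10 and 38 with the looser ETS consensus, which 45.1% and 43.1% of all windows of the long lists match. Host promoters with a peak kept their number of 3 under the thresholds and with promoters of 1 kb. Leaving out 1 library gave 0 to 25 peaks for control and 0 to 41 for VEDS. No test was made, so that no blocked fit exists, and the sex-matched differences were -25 and 41 peaks. A pileup of 7 to 100 per summit limits what can be told between libraries, and 504 and 1236 peaks limit what the short lists can show.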
